A study of Bos taurus with 8 samples.

Results

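IL6, IL10, IL12B, IL23A and IL27 are 5 cytokine genes of bovine blood cells that were followed here by the time of exposure to lipopolysaccharide (LPS), the outer membrane component of Gram-negative bacteria. The members were chosen by their gene names, 5 of the 21861 genes listed in the single-cell RNA sequencing (scRNA-seq) tables, where each name had 1 entry. Their Ensembl identifiers in these tables are ENSBTAG00000014921 for IL6, ENSBTAG00000006685 for IL10, ENSBTAG00000004741 for IL12B, ENSBTAG00000004378 for IL23A and ENSBTAG00000018015 for IL27. The same identifiers were looked up in the tables of the single-cell assay for transposase-accessible chromatin (scATAC-seq).

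Whole blood of 4 female Holstein cattle aged 2 years, lactating by the study's methods, was pooled before treatment and split into 4 parts. One part had no LPS, and the others had LPS at 2 µg/ml and 37 °C for 2 h, 4 h or 8 h, after which peripheral blood mononuclear cells (PBMCs) were isolated. Each part gave 1 scRNA-seq library and 1 scATAC-seq library, so the differences below compare single libraries, with no replicate to check them and no test. The incubation of the part without LPS is not given in the sources used here, so LPS and time in incubation cannot be told apart.

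All 5 genes encode secreted cytokines or their subunits, made mainly by monocytes, macrophages and dendritic cells after receptors such as TLR4 sense bacteria. IL6 is a pro-inflammatory cytokine, while IL10 restrains the same cells, and both signal through JAK kinases and STAT3. IL12B encodes a subunit shared by the cytokines IL-12 and IL-23, with IL12A as its partner in the former and IL23A in the latter, and the IL27 subunit pairs with EBI3.

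The cells kept, those with 200 to 3000 genes, at least 200 unique molecular identifiers (UMIs, counted as RNA molecules) and less than 20% mitochondrial UMIs, numbered 7821, 9865, 7387 and 3411 in time order (no LPS first, then 2 h, 4 h and 8 h). They held 38503367, 47875879, 40160248 and 16657841 UMIs. The libraries shared 6 to 21 cell barcodes in each pair, 79 over the 6 pairs, and no shared barcode had an IL6 UMI in both libraries. A cell was placed in a class by at least 1 UMI of CD14, FLT3, MS4A1 or CD3E, and could be in several classes. CD14-positive cells numbered 1233, 628, 294 and 440 in time order, or 15.8%, 6.37%, 3.98% and 12.9% of the cells. Their median depth was 6597, 9078, 6695 and 2230 UMIs in the same order, against 4172 to 5106 in CD3E-positive and 4114 to 5379 in MS4A1-positive cells.

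The classes were checked against marker genes. Of 9 monocyte markers, 7 or 8 were in at least 10% of the CD14-positive cells of each library. These cells also held markers of other cells, and 35.0%, 38.9%, 48.0% and 61.1% of them in time order had a CD3E or MS4A1 UMI. A list of 8 B cell markers summed to 231, 265, 371 and 592 CPM (the UMIs of a gene in every 1000000 UMIs summed over the cells) in them, and a list of 8 T cell markers to 158, 123, 180 and 414 CPM. A list of 5 neutrophil markers summed to 16.3, 62.2, 202 and 46.4 CPM, with MMP8 and CAMP at 0 in all 4 libraries. Values are therefore also given for cells with CD14 as their only marker of the 4. FLT3 marks dendritic cells, and the FLT3-positive cells numbered 36, 36, 22 and 17 in time order. Of 9 dendritic markers, FLT3 among them, 4, 4, 2 and 4 were in at least 10% of these cells. In CD14-positive cells it was 1 in each library. The FLT3-positive cells had no XCR1 UMI in any library and no CLEC9A UMI in 3 of 4. They also held 6 or 7 of the 9 monocyte markers in at least 10% of cells. They are called FLT3-positive cells only. Markers of other cells move with time in these classes, and their part in the results was not tested.

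Over all cells, every member was highest at 2 h. IL6 stood at 268, 545, 75.8 and 73.7 CPM in time order. The 2 h level was 2.03 times that without LPS (95% interval 1.99 to 2.08), and the 4 h and 8 h levels were 0.283 times (0.272 to 0.295) and 0.275 times it (0.259 to 0.292). IL6 thus lay above its level without LPS in 1 library and below it in the later 2, whose intervals overlap. These intervals and those below are exact 95% intervals of UMI counts or of cell numbers, and cover counting error only. IL10 stood at 44.6, 80.3, 31.2 and 28.3 CPM in the same order, with folds of 1.80 (1.70 to 1.91), 0.698 (0.649 to 0.751) and 0.635 (0.572 to 0.704). IL27 had 11.5, 23.0, 7.52 and 8.94 CPM, with folds of 2.00 (1.79 to 2.23), 0.654 (0.563 to 0.758) and 0.777 (0.641 to 0.938). The order of the treatments was the same for IL6 and IL10, and for IL27 the neighbours among no LPS, 8 h and 4 h had overlapping intervals.

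IL12B and IL23A were low. IL12B had 0.779, 2.55, 0.722 and 0.240 CPM, from 30, 122, 29 and 4 UMIs. IL23A had 2.80, 6.56, 2.66 and 2.64 CPM, from 108, 314, 107 and 44 UMIs. For both genes the 2 h interval lay above the others, and no other neighbours in the order were apart beyond their intervals.

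Ratios to no LPS were put on a log2 scale after adding 1 CPM to each level, and a gene was counted as past 2-fold at 1 or more or at -1 or less. At 2 h, 1 of the 5 members was past 2-fold higher, IL6 at 1.02, beside 0.938% of the 12150 genes compared, and none was past 2-fold lower, beside 2.46%. The others were at 0.83 for IL10, 1.00 for IL12B (just under the limit), 0.99 for IL23A and 0.94 for IL27. The median of the members at 2 h was 0.99, against -0.03 over all genes compared. At 4 h, IL6 was past 2-fold lower at -1.81, beside 4.26% of genes lower, and no member was past 2-fold higher, beside 1.28%. At 8 h, IL6 was again the only member past 2-fold, lower at -1.85, beside 2.92% of genes lower and 0.492% higher. The medians of the members were -0.50 at 4 h and -0.52 at 8 h, against 0.02 and 0.10 over all genes. In such sums fewer cells of a type and less RNA per cell cannot be told apart, and the share of CD14-positive cells was lower in every LPS library than without LPS.

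**Figure D1:**
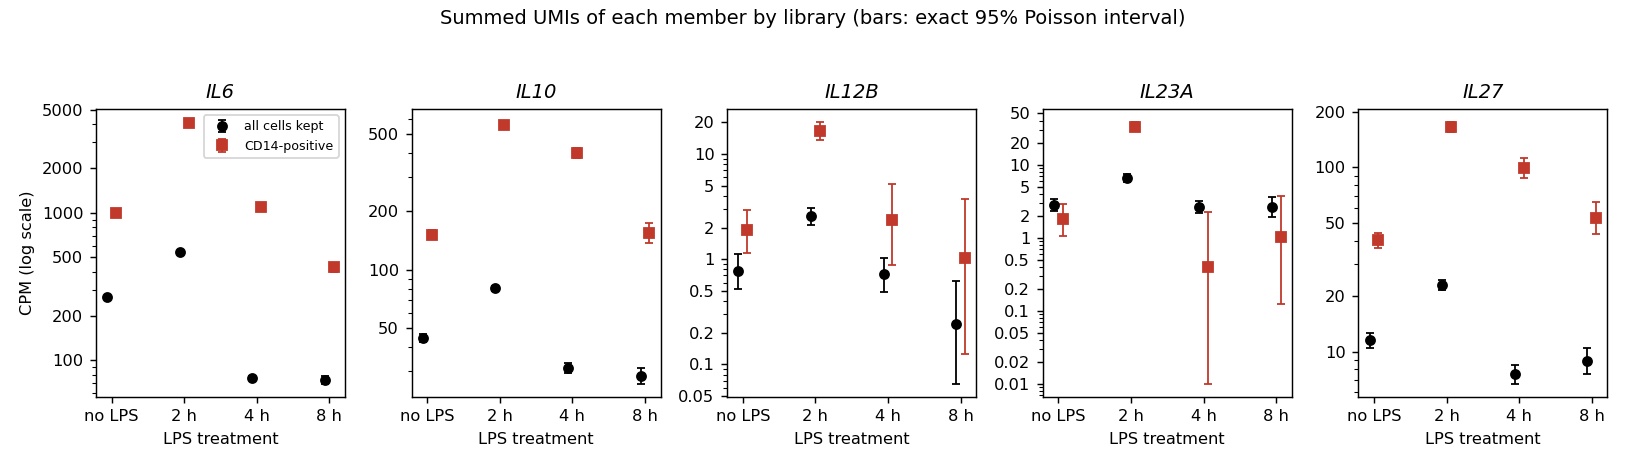
Level of each member in CPM (log scale) in all cells kept (black) and in CD14-positive cells (red) of the 4 scRNA-seq libraries, with bars for the exact 95% Poisson interval. The 2 h library is highest for each gene in both sets of cells, and IL10 and IL27 in CD14-positive cells remain above their no LPS level at 4 h while over all cells they lie below it.

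Most UMIs of 3 members came from CD14-positive cells. These cells held 97.0%, 96.0%, 90.3% and 67.5% of the IL6 UMIs of a library in time order. The share for IL10 was 88.4%, 89.6%, 80.9% and 63.8%. For IL27 it was 90.5%, 92.6%, 82.8% and 69.1%. The lowest share of all 3 genes was at 8 h, where the CD14-positive cells were also the shallowest. For IL10 and IL27, though not for IL6, this held only under the limit of 3000 genes. Once the cells above it were included, the shares were 98.1%, 97.3%, 94.0% and 88.9% for IL6, 93.2%, 94.5%, 87.9% and 91.7% for IL10 and 95.6%, 96.3%, 89.8% and 92.3% for IL27, so that those of IL10 and IL27 were lowest at 4 h. IL12B was spread otherwise, with 63.3%, 83.6%, 20.7% and 50.0% of its UMIs in CD14-positive cells, and IL23A had 16.7%, 65.0%, 0.935% and 4.55% there.

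Within CD14-positive cells all 5 members were past 2-fold higher at 2 h, beside 3.20% of the 9384 genes compared. None was past 2-fold lower, beside 7.90%. The median log2 ratio of the members was 2.02, against -0.31 over all genes. IL6 had 1001, 4066, 1091 and 427 CPM in time order. Its 2 h level was 4.06 times that without LPS (3.97 to 4.16), its 4 h level 1.09 times (1.05 to 1.14) and its 8 h level 0.427 times (0.397 to 0.458). The 4 h fall of IL6 seen over all cells was thus not present in CD14-positive cells, and without the highest IL6 cell of each library the 4 h ratio was 0.998 (0.953 to 1.04). With the cells above 3000 genes included it was 0.944 (0.918 to 0.972). In cells with CD14 as the only marker the folds were 3.69 (3.59 to 3.78), 1.06 (1.00 to 1.12) and 0.656 (0.606 to 0.710), so that the 8 h level there was not past 2-fold.

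IL10 and IL27 stayed higher for longer in these cells. IL10 had 152, 559, 401 and 155 CPM, with folds of 3.68 (3.46 to 3.91) at 2 h, 2.64 (2.44 to 2.86) at 4 h and 1.02 (0.900 to 1.16) at 8 h. IL27 had 40.1, 165, 99.2 and 53.2 CPM, with folds of 4.12 (3.66 to 4.63), 2.47 (2.10 to 2.90) and 1.32 (1.06 to 1.65). At 4 h these were the members past 2-fold higher, 2 of 5 beside 5.93% of the 9173 genes compared. IL23A was the 1 of 5 past 2-fold lower, beside 6.02%, on 1 UMI at 4 h and 18 without LPS, a ratio of 0.2202 whose interval runs from 0.00529 to 1.39. At 8 h none of the 5 was past 2-fold higher, beside 17.8% of 9216 genes, and IL6 was past 2-fold lower, beside 3.93%. The median of the members was 0.22 at 4 h and -0.46 at 8 h, against 0.03 and 0.39 over all genes. With the cells above 3000 genes included, the 4 h fold of IL10 was 1.97 (1.87 to 2.08), no longer past 2-fold, and that of IL27 2.08 (1.90 to 2.28), and at 8 h that of IL10 was 1.54 (1.46 to 1.63). In cells with CD14 alone, IL27 was 2.18 times (1.71 to 2.77) its level without LPS at 8 h. The cells above 3000 genes made up 25.5%, 26.1%, 40.6% and 31.6% of all CD14-positive cells in time order.

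IL12B and IL23A, which encode the subunits of IL-23, had their largest folds at 2 h, and both rested on few cells. IL23A had 1.80, 33.1, 0.397 and 1.03 CPM in CD14-positive cells, from 18, 204, 1 and 2 UMIs, with a fold of 18.4 at 2 h (11.3 to 31.6). At 2 h, 31 CD14-positive cells had IL23A, and the highest cells held 47, 46 and 27 UMIs. Without the highest cell of each library the 2 h fold was 31.9 (15.8 to 75.1), since 10 of the 18 UMIs without LPS were also in 1 cell. IL12B had 1.90, 16.6, 2.38 and 1.03 CPM there, from 19, 102, 6 and 2 UMIs, with a fold of 8.71 at 2 h (5.30 to 15.1). Of the 122 IL12B UMIs of the whole 2 h library, 91 (74.6%) were in 1 CD14-positive cell. Without the highest IL12B cell of each library the 2 h fold was 1.37 (0.557 to 3.32) in CD14-positive cells and 1.13 (0.635 to 2.05) over all cells. The higher 2 h level of IL12B thus rests on 1 cell, which also held 75 IL6, 6 IL10, 2 IL23A and 16 IL27 UMIs and was the only CD14-positive cell of the 4 libraries with all 5 members.

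**Figure D2:**
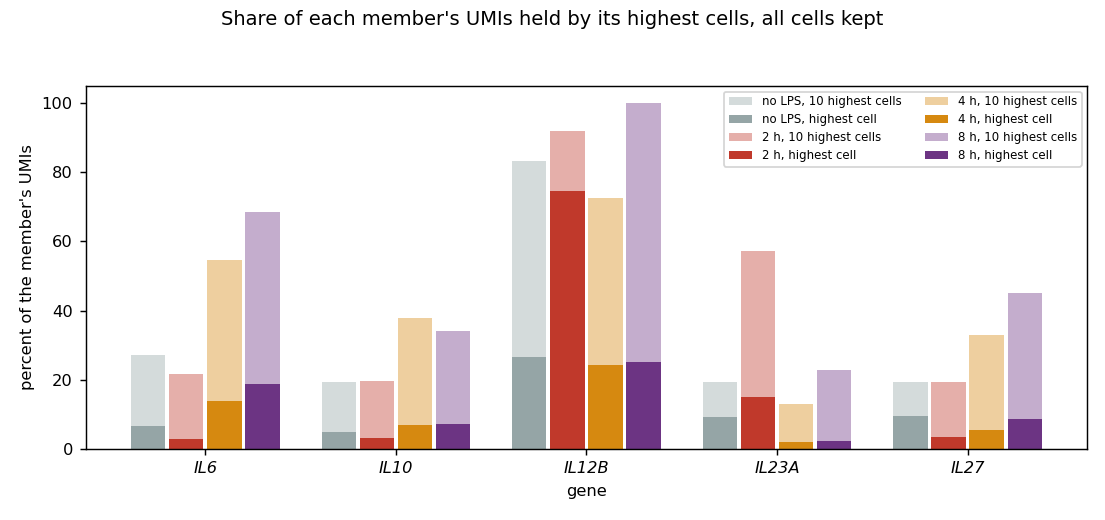
Percent of each member's UMIs held by its highest cell (solid bars) and by its 10 highest cells (pale bars) in each scRNA-seq library, over all cells kept. IL12B at 2 h stands apart, with 74.6% of its UMIs in 1 cell, and the 10 highest IL6 cells held 54.5% at 4 h and 68.5% at 8 h against 21.6% at 2 h.

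UMIs of IL6 were unevenly spread among cells as well. The highest IL6 cell had 682, 766, 417 and 230 UMIs in time order, or 6.61%, 2.94%, 13.7% and 18.7% of the IL6 UMIs of its library, and carried CD14 each time. The median CD14-positive cell with IL6 had 4, 29, 10.5 and 1 UMIs. The 2 h level was therefore shared by many cells with many UMIs, and the 8 h level rested on few. For IL10 the median positive CD14 cell had 2, 5, 3 and 1 UMIs and for IL27 it had 1, 3, 2 and 1.

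The share of CD14-positive cells with a member was highest at 2 h for the abundant genes, as the level was, but shares and levels differed in course later. IL6 was found in 30.3% (27.8 to 33.0), 47.3% (43.3 to 51.3), 23.1% (18.4 to 28.4) and 22.7% (18.9 to 26.9) of them. IL10 was found in 34.9% (32.2 to 37.6), 49.0% (45.1 to 53.0), 37.1% (31.5 to 42.9) and 23.4% (19.5 to 27.7). IL27 was found in 18.2% (16.1 to 20.5), 41.2% (37.4 to 45.2), 30.3% (25.1 to 35.9) and 9.55% (6.97 to 12.7). The 2 h class was also the deepest. The 8 h shares of IL10 and IL27 thus lay below those without LPS, although their 8 h levels in these cells did not, and the 4 h share of IL6 was the lower one although its level was 1.09 times that without LPS. These later shares changed with the limit of 3000 genes. With the cells above it included, the shares were 34.8%, 54.5%, 35.8% and 28.8% for IL6, 43.3%, 56.4%, 53.1% and 40.9% for IL10 and 27.3%, 51.9%, 49.1% and 27.5% for IL27. The intervals without LPS and at 8 h then overlapped for IL10 and IL27, as did those of IL6 without LPS and at 4 h. With each cell thinned to 1000 UMIs, which left out the 508, 429, 284 and 377 shallower cells of the libraries and redrew the class (811, 349, 156 and 190 CD14-positive cells), the shares were 22.6%, 41.8%, 15.4% and 10.0% for IL6. They were 11.2%, 21.8%, 21.2% and 14.7% for IL10, and 3.21%, 10.0%, 12.2% and 2.63% for IL27. At equal depth IL6 was again highest at 2 h, while the 2 h and 4 h intervals overlapped for IL10 and for IL27. The thinned 8 h share of IL10 was not below that without LPS. CD14-positive cells without a UMI of CSF3R, a neutrophil receptor gene, gave shares within the counting interval of the whole class in all 20 cases. They are part of that class, so this cannot show what neutrophils add to the shares. In the CSF1R-positive part of the class, 14 of the 20 shares were above that interval and 2 below it.

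IL12B was found in 12, 7, 4 and 2 CD14-positive cells, or 0.973%, 1.11%, 1.36% and 0.455%, with overlapping intervals. IL23A was found in 9, 31, 1 and 2 of them, or 0.730% (0.334 to 1.38), 4.94% (3.38 to 6.93), 0.340% (0.00861 to 1.88) and 0.455% (0.0551 to 1.63). The share of IL23A was thus higher at 2 h beyond the counting intervals. After thinning it was found in 2 of 811, 6 of 349, 0 of 156 and 0 of 190 cells. The intervals of 0.0299% to 0.888% without LPS and 0.633% to 3.70% at 2 h overlap, which does not show equal shares.

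**Figure D3:**
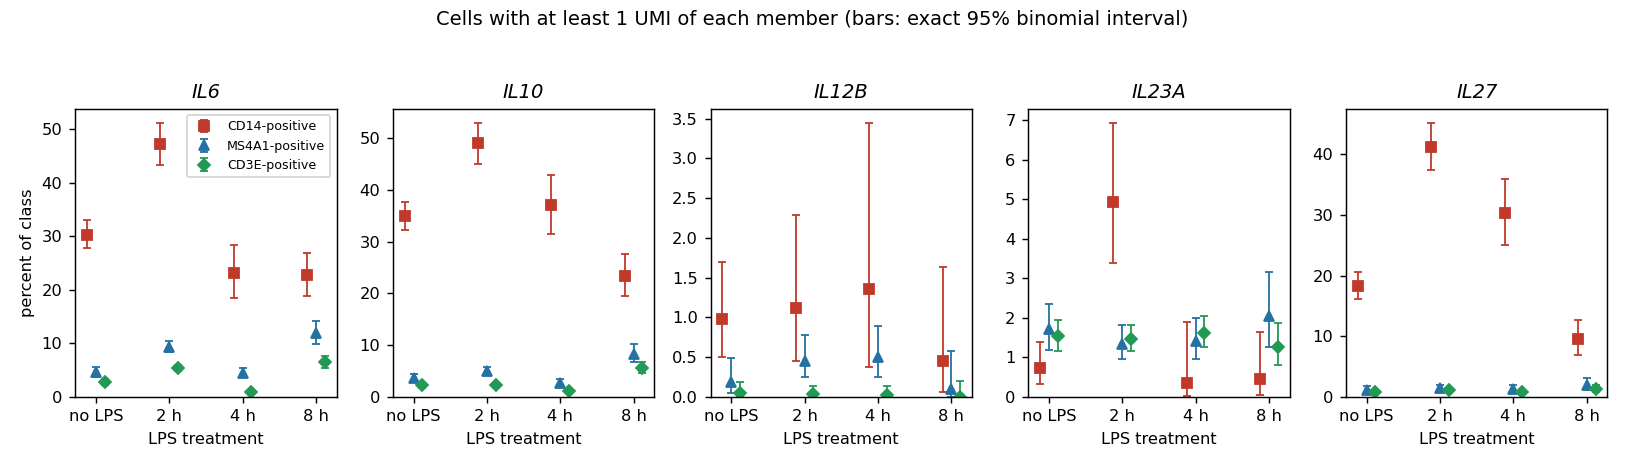
Percent of CD14-positive (red), MS4A1-positive (blue) and CD3E-positive (green) cells with at least 1 UMI of each member, by treatment, with bars for the exact 95% binomial interval and a separate axis for each gene. IL6, IL10 and IL27 are most frequent in CD14-positive cells in every library, whereas IL23A is so only at 2 h, at 4.94%.

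FLT3-positive cells carried the abundant members too, on few cells. IL6 was found in 8 of 36, 20 of 36, 9 of 22 and 5 of 17 of them, at 303, 1775, 267 and 217 CPM. IL10 was found in 8, 10, 9 and 3 of these cells, at 118, 374, 210.0 and 25.8 CPM. IL27 was found in 5, 14, 5 and 2, at 10.5, 120, 83.3 and 10.3 CPM. The levels of these genes were highest at 2 h in this class as well, while IL10 was found in a larger share of the cells at 4 h. Of these cells 13, 13, 9 and 4 were CD14-positive. In the 20, 16, 8 and 6 cells with FLT3 as the only marker, IL6 had 290.2, 222, 164 and 336 CPM. The 2 h fold was 0.764 (0.501 to 1.14), so the level had no 2 h peak there. Of the 81 IL6 UMIs without LPS, however, the highest cell held 64. The share of these cells with IL6 was highest at 2 h, at 56.25% (29.9 to 80.2) against 15.0% (3.21 to 37.9) without LPS, with overlapping intervals. IL10 had 0, 1, 1 and 0 UMIs and IL27 had 0, 8, 0 and 0 UMIs in them. IL12B was found in 1 FLT3-positive cell without LPS and in none of 36, 22 and 17 with LPS, which allows shares of cells with a UMI of up to 8.33%, 13.6% and 17.6%. IL23A was found in 1 cell at 8 h and in none of 36, 36 and 22 before, which allows up to 8.33%, 8.33% and 13.6%. Both hold only under the limit of 3000 genes. Without that limit IL12B was found in 1 of 70, 4 of 66, 0 of 49 and 1 of 33 FLT3-positive cells, and IL23A in 3, 6, 0 and 3 of them, with 39 UMIs at 2 h against 3 without LPS.

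T and B cell classes were set beside the CD14-positive cells for comparison. Whether T and B cells made IL6, IL10 or IL27 themselves was not tested. IL6 was found in 2.73%, 5.33%, 0.954% and 6.44% of CD3E-positive cells, at 38.8, 167, 11.5 and 22.1 CPM. The highest share, at 8 h, goes against the levels, and no order is read from it. In cells with CD3E as the only marker, IL6 had 0.452%, 0.332%, 0.1004% and 0.877% of its level in cells with CD14 alone. The median of the same percentage over 8 monocyte markers other than CD14 was 0.767%, 0.663%, 0.596% and 1.41%, so IL6 lay below it each time. In cells with MS4A1 alone IL6 had 0.520%, 0.545%, 1.16% and 1.68% of its level with CD14 alone, against medians of 0.908%, 0.760%, 0.236% and 2.12% for the monocyte markers, and was above the median at 4 h only, within their range of 0 to 4.92%. Against no LPS, IL6 in cells with MS4A1 alone was 3.86 times (2.86 to 5.32) at 2 h, 2.36 times (1.71 to 3.30) at 4 h and 2.12 times (1.41 to 3.18) at 8 h. The part of free RNA from other cells in these values was not tested.

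IL10 in cells with CD3E alone had 2.66%, 0.624%, 0.449% and 2.57% of its level with CD14 alone, and in cells with MS4A1 alone 2.49%, 2.03%, 0.671% and 3.64%. In CD3E cells without LPS this was 2.66% (2.08 to 3.36), beside 2.38% (1.61 to 3.396) for the highest of the monocyte markers, TLR4, and at 8 h it lay between their median and their highest value of 3.75%. In cells with MS4A1 alone IL10 was above the median of the markers each time, which was 0.908%, 0.760%, 0.236% and 2.12%. It was below their highest value, which was that of TLR4 without LPS (3.24%) and at 8 h (4.16%) and of SIRPA at 2 h (5.15%) and 4 h (4.92%). IL27 had 2.65%, 0.374%, 0.968% and 1.01% in cells with CD3E alone and 1.31%, 0.747%, 0.505% and 1.44% in cells with MS4A1 alone. In cells with CD3E alone without LPS, IL27 (interval 1.60 to 4.16) was like IL10 above all the monocyte markers, with intervals that overlapped that of TLR4. The other values of both genes in lymphoid cells lay within the range of the markers. The part of RNA from other cells in them was not tested.

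Ratios to no LPS in the whole lymphoid classes, which include cells with CD14, were counted as above. In MS4A1-positive cells, IL6 and IL10 were past 2-fold higher at 2 h, 2 of 5 beside 2.12% of genes (2.55% lower). None of the 5 was past 2-fold at 4 h (2.23% higher and 5.10% lower), and IL6 was past 2-fold lower at 8 h, 1 of 5 beside 2.28% (1.34% higher). In CD3E-positive cells, IL6 and IL27 were past 2-fold higher at 2 h, 2 of 5 beside 0.710% (0.692% lower). IL6 was past 2-fold lower at 4 h, 1 of 5 beside 1.67% (1.07% higher), and none of the 5 was past 2-fold at 8 h (0.419% higher and 0.912% lower). Several of these calls changed when the cells above 3000 genes were included. In MS4A1-positive cells 4 of 5 were then past 2-fold higher at 2 h, and IL6 at 8 h went from 0.433 to 0.817 times its level without LPS, no longer past 2-fold. In CD3E-positive cells IL6 at 4 h went from 0.297 to 0.541 times, no longer past 2-fold, and IL10 at 8 h was past 2-fold higher at 2.04 times. IL27 at 2 h was no longer past 2-fold on the log2 scale there, at 0.98, while IL23A was, at 1.54.

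IL23A differed from the other members in where it was found. Of its 97, 139, 103 and 44 positive cells, 62.9%, 57.6%, 66.0% and 54.5% were CD3E-positive, and CD3E-positive cells made up 51.1% to 56.8% of all cells. Its level in CD3E-positive cells was 3.39, 3.25, 3.20 and 2.42 CPM, with folds to no LPS of 0.961 (0.684 to 1.36), 0.944 (0.663 to 1.35) and 0.716 (0.428 to 1.16). In MS4A1-positive cells it was 3.44, 2.58, 2.22 and 3.75 CPM, with folds of 0.750 (0.469 to 1.202), 0.646 (0.388 to 1.07) and 1.09 (0.5996 to 1.93). Every interval includes 1, so no difference in either class was detectable in the cells under 3000 genes. Without that limit the 2 h fold of IL23A was 3.63 (2.83 to 4.70) in CD3E-positive and 4.25 (3.12 to 5.89) in MS4A1-positive cells. It was 0.911 (0.633 to 1.32) in cells with CD3E alone and 0.7195 (0.418 to 1.24) in cells with MS4A1 alone. Without LPS the level with CD3E alone was 167% (91.4 to 326) of that with CD14 alone, and at 2 h it was 6.10% (4.56 to 8.07). Nearly all IL23A-positive cells held 1 UMI, 96.9%, 89.2%, 96.1% and 100% of them in time order.

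IL12B was found in 15, 20, 18 and 4 cells in all. In cells with CD3E alone none of 3518, 4970, 3895 and 1555 had it, which allows shares of cells with a UMI of up to 0.0853%, 0.0604%, 0.0770% and 0.193%. Of the IL12B-positive cells, 4, 13, 11 and 1 were MS4A1-positive, and 1, 11, 9 and 1 of these had MS4A1 as the only marker. In cells with MS4A1 alone the IL12B level was 0.128, 1.46, 1.05 and 0.255 CPM from 1, 18, 12 and 1 UMIs, and the ratio at 2 h was 11.4 with an interval from 1.80 to 476. At 2 h and 4 h, 7 and 4 of the cells with IL12B carried CD14. MS4A1-positive cells were far more numerous, 2852 and 2200 against 628 and 294 CD14-positive cells. As a share of its class, IL12B was found in 0.456% (0.243 to 0.778) and 0.50% (0.2499 to 0.893) of MS4A1-positive cells at 2 h and 4 h, against 1.11% (0.449 to 2.28) and 1.36% (0.372 to 3.45) of CD14-positive cells, with overlapping intervals. The highest IL12B cells without LPS and at 4 h, with 8 and 7 UMIs, carried none of the 4 markers.

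Members were often found in the same CD14-positive cell. At least 2 of the 5 were detected in 25.1%, 49.4%, 31.6% and 11.4% of these cells in time order, and the median depth of such cells was 14088, 14417, 15114 and 10027 UMIs. Of the IL6-positive CD14-positive cells, 53.7%, 74.1%, 64.7% and 33.0% in time order had IL10, against 26.7%, 26.6%, 28.8% and 20.6% of the IL6-negative ones. IL6-positive cells were deeper, with a median of 11901 against 4854 UMIs without LPS and 13864 against 4613 at 2 h. After thinning to 1000 UMIs the shares were 16.9%, 30.8%, 29.2% and 10.5% in IL6-positive and 9.55%, 15.3%, 19.7% and 15.2% in IL6-negative cells. The 2 h intervals were 23.5% to 39.0% and 10.6% to 21.0%. These lay apart at equal depth. Without LPS the intervals overlapped narrowly, 11.8% to 23.2% against 7.37% to 12.1%. An overlap does not show equal shares, and the differences were not tested.

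For IL27 the thinned shares were 4.92%, 10.3%, 8.33% and 10.5% in IL6-positive and 2.71%, 9.85%, 12.9% and 1.75% in IL6-negative cells. These had overlapping intervals at every time. Before thinning IL27 was found in 61.6% and 23.0% of these cells at 2 h, a gap that was not detectable at equal depth. IL23A at 2 h was found in 26 of 297 IL6-positive (8.75%, 5.80 to 12.6) and 5 of 331 IL6-negative cells (1.51%, 0.492 to 3.49), and the part of depth in this was not tested.

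The subunits that pair with members were described next. EBI3, the partner of the IL27 subunit, was found in 37.8%, 46.7%, 33.7% and 28.6% of CD14-positive cells with IL27 and in 17.0%, 12.47%, 6.83% and 8.04% of those without it. The cells with IL27 were deeper in each library, for example by a median of 15060 against 4395 UMIs at 2 h, and the part of depth was not tested. Over all cells 95, 136, 37 and 14 cells held both. EBI3 in CD14-positive cells had 67.9, 81.2, 55.9 and 59.4 CPM, with folds of 1.196 (1.06 to 1.34), 0.824 (0.683 to 0.990) and 0.875 (0.711 to 1.07), all smaller than those of IL27. Over all cells it was past 2-fold lower at 4 h, at a log2 ratio of -1.10. IL12A was found in no cell with IL12B in any library, of 15, 20, 18 and 4 such cells. In the 12, 7, 4 and 2 of these that were CD14-positive, the exact intervals reach 26.5%, 41.0%, 60.2% and 84.2%. The cells are thus too few to tell whether the 2 genes occur together. IL12A had 1.10, 3.08, 1.59 and 0 CPM in CD14-positive cells, with a ratio of 2.80 at 2 h (1.27 to 6.52) and an interval that reaches 1.90 CPM at 8 h. IL12B and IL23A were found together in 1, 2, 1 and 0 cells.

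Other genes of the pathways were taken as lists and counted as above, beside the percentages already given. Of 8 receptor genes (IL6R, IL6ST, IL10RA, IL10RB, IL12RB1, IL12RB2, IL23R and IL27RA), none was past 2-fold over all cells at any time, with medians of -0.04, -0.01 and 0.17. In CD14-positive cells, where 7 had at least 20 UMIs in the pair compared, 1, 1 and 2 were past 2-fold higher and none lower, with medians of -0.43, 0.17 and -0.04. IL23R, a receptor subunit for IL-23, was higher at each time, with 2.40, 8.12, 8.73 and 7.23 CPM and folds of 3.38 (2.04 to 5.75), 3.63 (1.94 to 6.76) and 3.01 (1.44 to 6.05). IL12RB1, shared by the receptors of IL-12 and IL-23, was higher at 8 h, at 15.0 against 3.003 CPM, a fold of 4.98 (2.89 to 8.59). Both are lymphocyte genes as well. The summed T cell markers of these cells were 158, 123, 180 and 414 CPM in time order, and the part of T cell RNA in the 2 genes was not tested. IL6R, which binds IL6, had 46.6, 29.5, 27.4 and 45.4 CPM, lower at 2 h (0.633, 0.531 to 0.753) and 4 h (0.587, 0.449 to 0.757) but not past 2-fold.

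Of 6 kinases and STATs, 1 was past 2-fold higher in CD14-positive cells at each time and none lower, with medians of 0.58, 0.72 and 0.18. JAK2, a receptor kinase, was higher at 2 h, at 154 against 71.1 CPM. STAT4, the transcription factor used by IL-12 signalling, was higher at 4 h and 8 h, at 59.5 and 52.6 against 21.8 CPM. The summed T cell markers of these cells were 180 and 414 against 158 CPM, and the part of T cell RNA in STAT4 was not tested. STAT3, used by IL6 and IL10, had 93.7, 128, 136 and 89.8 CPM and was not past 2-fold. Over all cells no gene of this list was past 2-fold.

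Of 7 STAT3 targets and feedback genes, 6 had an entry by name. SOCS3, an inhibitor of IL6 signalling, and PIM1, a kinase, were past 2-fold higher in CD14-positive cells at 2 h and 4 h. SOCS3 had 14.4, 33.0, 30.9 and 13.9 CPM and PIM1 had 114, 360.2, 424 and 218 CPM. ETS2 was past 2-fold lower at 8 h, at 126 against 271 CPM. Both SOCS3 and PIM1 were nearer to their no LPS level at 8 h than at 4 h. Over all cells PIM1 was past 2-fold higher at 2 h and ETS2 past 2-fold lower at 4 h and 8 h.

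Of 13 regulators of these cytokine genes, 5 were past 2-fold higher in CD14-positive cells at 2 h, 7 higher and 1 lower at 4 h, and 2 higher at 8 h. Their medians were 0.79, 1.09 and 0.12, against -0.31, 0.03 and 0.39 over all genes in these cells. NFKB1, an NF-κB subunit, had 219, 578, 485 and 221 CPM, and NFKBIZ, a nuclear cofactor for IL6, had 63.1, 203, 215 and 95.5 CPM. ATF3, a repressor of IL6, had 120, 467, 357 and 148 CPM. ZC3H12A, a nuclease that degrades IL6 RNA, had 28.3, 131, 92.8 and 52.6 CPM. Inducers and restraining genes of IL6 were thus both higher at 2 h and 4 h. REL was past 2-fold higher with them at 2 h and 4 h, IRF1 and IRF8 at 4 h and 8 h, and MAF, a factor for IL10, was past 2-fold lower at 4 h, at 1.59 against 5.10 CPM (0.311, 0.0816 to 0.846). The summed B cell markers of CD14-positive cells were 371 CPM at 4 h and 592 CPM at 8 h, against 231 CPM without LPS. The part of B cell RNA in IRF8 was not tested. ARID5A, which stabilises IL6 RNA, had log2 ratios of 0.78, 0.72 and 0.12. Over all cells NFKB1, NFKBIZ, ATF3 and ZC3H12A were past 2-fold higher at 2 h and none of the 13 was past 2-fold at 4 h or 8 h.

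**Figure D4:**
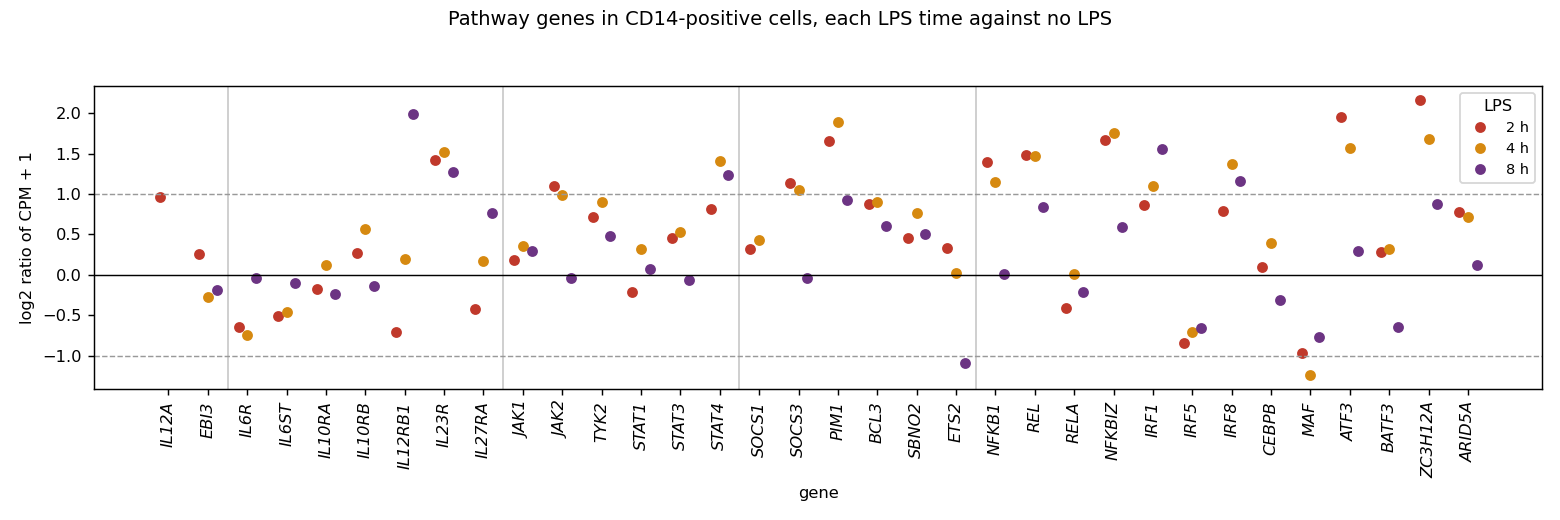
Log2 ratio of CPM + 1 to no LPS in CD14-positive cells for partner subunits, receptors, kinases and STATs, STAT3 targets and regulators (groups divided by grey lines), at 2 h (red), 4 h (orange) and 8 h (purple), for genes with at least 20 UMIs in the libraries compared. Dashed lines mark 2-fold, and ZC3H12A is the highest of these genes at 2 h, at 2.17, and PIM1 at 4 h, at 1.89.

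The genes most like each member were found from log2(CPM + 1) over 16 points, the 4 classes in the 4 libraries, among about 10000 genes. The points share libraries and cells, so the correlations are a description. IL6 was most like CXCL3 (r = 0.946), TNIP3 (0.945) and IER3 (0.942). IL10 was most like an unnamed gene, ENSBTAG00000004714 (0.978), ICAM1 (0.975) and TSFM (0.964), and IL27 ranked 9 for it (0.959). IL27 was most like BTG3 (0.992), CCL3 (0.980) and CCL4 (0.980). IL12B, on 185 UMIs, reached no more than 0.807, with PIK3AP1, followed by CEP83 (0.772) and TMEM251 (0.771). IL23A reached 0.681, with LIG4, followed by NAT14 (0.673) and ENSBTAG00000048707 (0.648), and its r with IL6 was -0.02.

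The scATAC-seq tables count signal per gene and barcode, from nuclei whose classes were not assigned. The deposited counts summed to 975012, 30250143, 26837579 and 11957904 in time order, with medians of 213, 5171, 5205 and 2250 counts per barcode. The library without LPS was thus far shallower, and comparisons with it rest on 16 to 63 counts per member. Between 88.7% and 93.8% of the values above 0 were even, so intervals were computed on counts divided by 2. IL27 had an entry at 2 h only, with 46 counts, and none in the other scATAC-seq libraries.

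Among the LPS libraries, IL6 had 10.5 CPM (8.94 to 12.3) at 2 h, 7.49 (6.10 to 9.10) at 4 h and 7.86 (5.78 to 10.5) at 8 h. The 4 h to 2 h ratio was 0.712 (0.546 to 0.916). IL10 had 82.0, 78.4 and 60.8 CPM, with an 8 h to 2 h ratio of 0.741 (0.659 to 0.835). IL23A had 41.5, 41.9 and 33.9 CPM, with an 8 h to 2 h ratio of 0.817 (0.692 to 0.957), and IL12B had 21.4, 22.1 and 21.1 CPM, with a ratio of 0.985 (0.794 to 1.21). In CPM, IL6 at 4 h and IL10 and IL23A at 8 h were thus lower than at 2 h beyond counting error. The differences were less than 2-fold, and none was detectable for IL12B. The share of barcodes with IL6 was 3.76% (3.21 to 4.39) at 2 h and 3.13% (2.55 to 3.79) at 4 h, with overlapping intervals. After thinning to equal depth it was 0.767% (0.525 to 1.08) and 0.754% (0.473 to 1.14). Thinned shares of IL23A at 2 h and 8 h overlapped, 3.57% (3.03 to 4.18) and 2.57% (2.00 to 3.24). Those of IL10 lay narrowly apart, 6.59% (5.86 to 7.39) and 4.95% (4.15 to 5.84). The 8 h to 2 h ratio of IL6, 0.748 (0.528 to 1.04), spanned 1. IL27 had 1.52 CPM (0.964 to 2.28) at 2 h, where 2.92% of the genes listed were lower. Without LPS, IL6 had 33.8 CPM (19.5 to 54.6), IL10 64.6 (44.0 to 91.5), IL12B 35.9 (21.1 to 57.1) and IL23A 16.4 (7.08 to 32.3). In the 352 barcodes with at least 500 counts, the IL6 value without LPS was 14.7 CPM, below its interval. IL23A was at 29.4 CPM in them, within its interval.

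**Figure D5:**
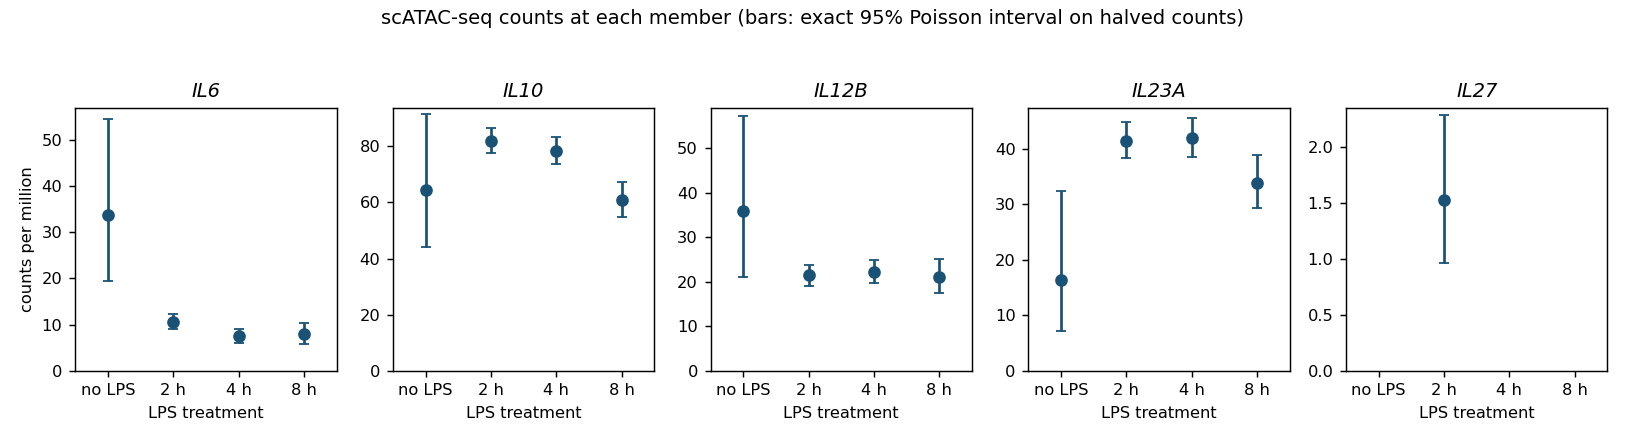
CPM at each member in the 4 scATAC-seq libraries, with bars for the exact 95% Poisson interval on halved counts and a separate axis for each gene. The no LPS intervals are the widest, and IL10 is lower at 8 h (60.8) than at 2 h (82.0) and 4 h (78.4).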

How the data were processed

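Per the labels and the methods, the authors made the scRNA-seq libraries with 10x Genomics 3' kits and processed them with Cell Ranger on ARS-UCD1.2 (bosTau9). Tables deposited for scRNA-seq hold unnormalised UMI counts of each gene in each barcode, and those deposited for scATAC-seq hold counts of each gene in each barcode, whose counting rule is not given in the sources used here. Cells were kept by the limits on genes, UMIs and mitochondrial share in the methods, which left more cells in every library than the study states, so its set of cells was not recovered. The UMIs of each class in a library were added up and expressed as CPM, and 1 CPM was added before log2. No doublet caller was run, and the gene limit was the only treatment of doublets. Genes were compared with at least 20 UMIs in the pair of libraries. Intervals are exact Poisson, Clopper-Pearson and conditional binomial, at 95%. Where a limit is given for a count of 0, it is the share that 3 counts allow or the upper end of the exact interval. Genes named are the members, the genes of 5 pathway lists and the 3 genes most alike to each member with at least 200 UMIs. The members and lists were chosen with earlier results of these data known. There was 1 library per treatment and assay, so no p-value was computed. Python 3.11.15 with numpy 2.4.6, scipy 1.17.1 and pandas 2.3.3 was used, and edgeR 4.0.16 and DESeq2 1.42.0 only for scaling factors. The ratio step was tested on simulated data. Alternatives were other cell limits, scalings, pseudocounts, class rules and depths. Of the alternatives, CD14-positive cells by other limits, CSF1R-positive and CSF3R-negative cells and libraries without their highest cell were chosen after the data were seen. No genome of the build used was at hand, so no coordinates or sequences are printed.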

Additional observations from a re-analysis of the deposited data

Results flagged for a closer look

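Some ratios to no LPS ran in opposite directions in different classes beyond their counting intervals, and these differences were not tested. IL6 at 4 h was 1.06 times its level without LPS in cells with CD14 alone (1.00 to 1.12) and 0.235 times in cells with CD3E alone (0.145 to 0.368). At 8 h IL6 was 0.656 times in cells with CD14 alone (0.606 to 0.710) and 2.12 times in cells with MS4A1 alone (1.41 to 3.18). IL10 at 4 h was 2.61 times in cells with CD14 alone (2.36 to 2.88) and 0.440 times in cells with CD3E alone (0.295 to 0.647). The lymphoid values rest on 26 to 86 UMIs. In cells with CD14 alone at 4 h, the 10 highest cells held 85.7% of the 1529 IL6 UMIs, and the highest held 417. The interval of that IL6 ratio starts at 1.00, and the ratio was not computed without the highest cells in this class. The highest IL6 cell without LPS, with 682 UMIs, also carried CD14 alone. In all CD14-positive cells the 4 h ratio without the highest cell of each library was 0.998 (0.953 to 1.04), not above 1. When the cells above 3000 genes were included, 2 of these 3 contrasts were no longer in opposite directions. IL6 at 4 h was then 0.915 times (0.869 to 0.963) in cells with CD14 alone, below its no LPS level as in cells with CD3E alone (0.236, 0.149 to 0.365), and IL10 at 4 h was 1.31 times (0.994 to 1.74) in cells with CD3E alone. The contrast of IL6 at 8 h was 0.642 (0.602 to 0.684) against 2.39 (1.68 to 3.43).

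The barcodes above 3000 genes, which the study's limits leave out, also held members. They numbered 619, 511, 542 and 419 in time order. IL6 in them had 339, 971, 246 and 205 CPM in the same order. IL10 had 86.7 CPM without LPS and 234, 108 and 135 at 2 h, 4 h and 8 h. IL12B had 0.308 CPM and then 0.884, 1.54 and 0.914, on 6 to 25 UMIs. IL23A had 1.13 CPM and then 18.9, 2.28 and 1.90. IL27 had 31.4 CPM and then 84.2, 42.2 and 37.8. The counting interval of the ratio to no LPS lay above 1 for each of these LPS values except IL23A at 8 h and IL6 at 4 h and 8 h, both lower than without LPS.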

How the results depend on the processing

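Over all cells the sign of each member at 2 h was the same in every alternative, while the later signs of IL10, IL12B, IL23A and IL27 were not. Without the upper limit of 3000 genes the log2 ratios that left their counting interval were 1.15, -1.22 and -1.12 for IL6 and 1.00, -0.14 and 0.40 for IL10 at 2 h, 4 h and 8 h, 1.71 for IL23A at 2 h, -0.053 and 0.27 for IL27 at 4 h and 8 h and -0.064 for IL12B at 8 h. With every deposited barcode they were 1.16, -1.22 and -1.12, then 1.00, -0.14 and 0.40, then 1.72, then -0.054 and 0.27, then -0.064. With cells weighted equally they were 0.77, -1.73 and -0.76 for IL6, 0.34, -0.69 and 0.40 for IL10, 0.080 and -0.81 for IL12B at 2 h and 8 h, 0.50 for IL23A at 2 h and 0.28 and 0.16 for IL27 at 2 h and 8 h. In CD14-positive cells they were 2.02, 0.12 and -1.23 for IL6, whose sign at 4 h was opposite to that over all cells, 1.87, 1.40 and 0.031 for IL10, 2.60 for IL12B at 2 h, 3.61, -1.004 and -0.46 for IL23A and 2.01, 1.28 and 0.40 for IL27. TMM scaling gave -1.97 for IL6 at 8 h, DESeq2 size factors 1.06 at 2 h and -1.97 at 8 h, and cells with at least 2000 UMIs -1.97 at 8 h and -0.89 for IL10. A pseudocount of 0.1 CPM gave 1.59 and -1.37 for IL12B at 2 h and 8 h. Members past 2-fold higher at 2 h numbered 4 without the upper limit, 3 under either scaling, 3 with the smaller pseudocount and 0 with cells weighted equally, against 1. The sign of IL23A at 4 h in CD14-positive cells turned to 0.46 when cells above 3000 genes were included. The genes at least 2-fold lower at 8 h numbered 146 without the upper limit, against 344. The cause of these changes was not tested. No minimum of UMIs left the counts of genes at 114, 154 and 58 higher, the same numbers as with at least 20 UMIs. Of the 20 shares of positive CD14 cells, those outside the counting interval of the main value were 20 lower after thinning, 17 higher without the upper limit, 14 higher and 2 lower in CSF1R-positive cells, 12 higher and 1 lower with at least 2 UMIs of CD14, 8 higher in cells with CD14 alone, 19 lower with at least 2 UMIs of the member and 0 in CSF3R-negative cells. No paired analysis was possible because each treatment had 1 library. IL12B and IL23A, and the scATAC-seq library without LPS, are limited by depth.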
